A study of Mus musculus with 24 samples.

Results

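Livers of mice that lack the kinase GCN2 in the whole body (KO) were compared between a diet without leucine (LeuD) and the control diet (Control), all at circadian time 3 h (CT03). The comparison holds 6 of the 24 libraries of the series, 3 mice on each diet, and was read from the table the authors deposited for it, with all 14888 listed genes. All groups shared 1 housing scheme: mice were caged alone with free access to food, on a light-dark cycle of 12 h and 2 days of control diet. The LeuD groups then changed diet at the onset of the dark phase, darkness became constant 24 h later, and the mice were killed under red light after 8 days of it. The comparison was set beside the same diets in wild-type mice (WT) at CT03 and in KO mice at CT15 (15 h), with 3 mice per group. The labels name neither the strain, sex and age of the mice nor the method of the deletion. They call the replicates biological. The p-values measure the spread between these mice alone.

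GCN2 binds uncharged transfer RNA when an essential amino acid is scarce and phosphorylates the translation factor eIF2. Phosphorylated eIF2 slows translation in general but favours the messenger of ATF4, a transcription factor whose targets include enzymes of serine and asparagine synthesis, amino acid transporters and stress regulators such as Ddit3. Together this is called the integrated stress response (ISR). The kinases encoded by Eif2ak1, Eif2ak2 and Eif2ak3 phosphorylate the same site of eIF2 on other cues, and leucine also acts on growth through the kinase complex mTORC1, which controls the translation of ribosomal protein messengers.

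The 6 libraries held 35488153 to 43124989 reads in listed genes. Levels below are normalized counts, reads divided by a size factor per library, listed for replicates 1, 2 and 3 of a group in that order. A level of 1 gene may be compared between libraries but not with that of another gene, since gene length is not taken into account. Differences are given as log2 of LeuD over Control after adding 1 to each normalized count, with the standard error (SE), n = 3 mice per group. They were tested with limma, p-values were adjusted across the whole table by the Benjamini-Hochberg method, and "called" or "passed" means below 0.05 after that. In bulk tissue a smaller number of cells of a type and less RNA per cell cannot be told apart.

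One library stood apart. Over 11936 genes with a mean of at least 50, KO LeuD replicate 3 had a mean correlation of 0.943 with the other LeuD libraries and of 0.976 with the Control libraries. Its mean absolute log2 distance was 0.452 to its own group and 0.312 to Control. On the first principal component, which held 52.2% of the variance, LeuD replicates 1, 2 and 3 lay at 60.4, 32.8 and -15.8 and the Control libraries at -33.8, -34.1 and -9.45. No label sets this mouse apart, and whether its diet label holds, or how much each mouse ate, could not be checked with the sources used here. Every LeuD mean and count below includes it unless said otherwise. In albumin it was like its group, at 11.8% of reads against 12.2% and 12.3% in the other LeuD mice and 8.48% to 9.47% in Control. Pancreas acinar markers (24 measured) summed to 16368 RPM (reads scaled to a library of 1000000) in LeuD replicate 1 and 299 in Control replicate 3, against 38.6 to 63.9 in the other 4 libraries. In KO at CT15 they summed to 8763 RPM in LeuD replicate 3 and 753 in Control replicate 1, against 42.1 to 76.8 in the rest, and the CT15 counts below were not recomputed without these. Counts of called genes without LeuD replicate 3 are therefore given for the gene groups, and values without both acinar libraries where they moved a result. LeuD replicate 3 was singled out because it lay near Control in these same values. Leaving it out tends to widen the diet differences and raise the calls by design. Counts and p-values without it show how the results depend on this library and are no independent support.

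Limma called 0 genes (0.0% of 14888) for diet in the 6 libraries, with 2173 at an unadjusted p under 0.05. On the recovered whole reads edgeR called 0 (2256 at an unadjusted p under 0.05) and DESeq2 520. These 520 are the same genes that pass in the authors' deposited table. That table lists 298 genes as higher on LeuD (2.01% of 14822 with an adjusted p) and 222 as lower (1.5%). Of the 520, 461 had LeuD and Control libraries that did not overlap. With the spread taken from the 12 libraries at CT03, WT included, limma called 171 genes higher (1.18% of 14497) and 160 lower (1.1%). Without LeuD replicate 3, 627 were called higher (4.21% of 14888) and 607 lower (4.08%). The last 2 sets shared 252 genes. The fit of 12 libraries cited below is the one at CT03. It pools the spread of KO and WT mice, so its p-values do not measure the spread of the KO mice alone. With the spread of the 12 KO libraries of both times instead, chosen after seeing the data, 20 genes were called higher and 7 lower. Because the full comparison called none, the text gives the libraries of each gene and says whether the diets overlap. In 1398 genes (9.39%) all LeuD libraries lay above all Control libraries, and in 1458 (9.79%) below, and the counts of each gene group are to be read against these shares.

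The targeted gene Eif2ak4, which encodes GCN2, had 241, 332 and 333 normalized counts in LeuD and 454, 459 and 387 in Control, a difference of -0.53 ± 0.18 (adjusted p = 0.301). At CT03 the WT libraries had 326, 329 and 312 on LeuD and 319, 348 and 326 on Control, and at CT15 the KO libraries 321, 295 and 292 and 316, 441 and 409. The KO and WT ranges overlapped. The values count reads over the whole gene, and which part was deleted is not in the labels, so this level does not check the genotype. The list of eIF2 kinases and phosphatase subunits (14 measured) had 1 member above and 3 below. The 1 above was Eif2ak3, which encodes the kinase PERK of the endoplasmic reticulum (ER), with 1002, 1145 and 705 in LeuD against 484, 483 and 423 in Control (1.01 ± 0.20, adjusted p = 0.205). Its LeuD libraries all lay above Control, and it passed in the fit of 12 libraries (adjusted p = 0.0399). Eif2ak1, the haem-regulated kinase, had 1807, 1822 and 2129 in LeuD against 2233, 2279 and 2608 in Control (-0.31 ± 0.13), and Eif2ak2, the kinase PKR of the antiviral response, 730.5, 621 and 548 in LeuD against 738, 1012 and 1005 in Control (-0.53 ± 0.18). Both had all LeuD mice below Control and did not pass.

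Genes of the ISR were higher on LeuD in KO livers, most of all in replicates 1 and 2. Of 36 measured members of the list, 9 had all LeuD libraries above Control and 1, Shmt2, an enzyme of serine and folate metabolism, had them below. In all, 32 had a positive difference. The median difference was 0.63, against 0.00 for all genes. By library, the median of the list relative to the Control mean was 1.01, 1.01 and 0.14 in LeuD and -0.17, -0.04 and 0.25 in Control, so replicate 3 lay within the Control range. In the fit of 12 libraries 4 members were called higher and 0 lower, without LeuD replicate 3 there were 13 and 0, and the authors' deposited table lists 9 and 0. In WT at CT03 13 of 35 members lay above and 0 below, with a median of 0.46 (12.1% of 14729 genes lay above and 11.9% below). In KO at CT15 9 of 36 lay above and 3 below, with a median of 0.20 (11.9% of 14834 genes and 11.1%).

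Start-site windows are shown for 4 ISR genes, since ATF4 is the shared regulator of the list in textbook accounts. A motif of the kind ATF4 binds, TGATGNAA or its complement on the other strand, was looked for in the 250 bases before each RefSeq start site. It was present in 9 of the 32 ISR genes with a window (28.1%), against 3.91% of 27025 genes with one. Among the 10934 listed genes with a window, from which the ISR genes come, the share was 2.56%. The 4 were picked from the 9 after their values were seen: Atf3, Fgf21 and Pycr1 are those whose LeuD libraries all lay above Control, and Asns is a known ATF4 target whose libraries overlapped. The 5 not shown, Chac1, Jdp2, Nupr1, Slc7a11 and Vldlr, overlapped too. The capitals below mark it; the sequences are from RefSeq, build GRCm38.p6, on the strand of the gene.
Atf3 (chr1:191183406-191183473, minus strand): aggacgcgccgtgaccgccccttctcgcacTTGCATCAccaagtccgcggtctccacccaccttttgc
Fgf21 (chr7:45615592-45615659, minus strand): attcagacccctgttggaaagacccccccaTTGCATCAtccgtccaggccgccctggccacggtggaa
Pycr1 (chr11:120643814-120643881, minus strand): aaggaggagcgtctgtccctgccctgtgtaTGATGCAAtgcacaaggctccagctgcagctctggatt
Asns (chr6:7693210-7693262, minus strand): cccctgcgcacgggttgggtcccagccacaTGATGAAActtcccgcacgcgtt
In Asns the motif began 23 bases before the start site, and in Pycr1, Atf3 and Fgf21 103, 110 and 139 bases before it. Gdf15, Ddit3, Mthfd2, Psat1 and Phgdh, described next, did not hold these letters in their windows. A match is a description of the sequence and not a measured binding site.

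Gdf15, a secreted stress hormone that reduces food intake, had 2221, 773 and 969 normalized counts in LeuD and 149, 222 and 65.5 in Control. All 3 LeuD mice were above all Control mice, with a difference of 3.18 ± 0.53 (adjusted p = 0.189, and 0.0112 in the fit of 12 libraries). In WT mice at CT03 the same gene had 388, 342 and 195 on LeuD and 210.1, 144 and 173 on Control (0.77 ± 0.26). The test of the difference between genotypes gave 2.42 ± 0.65 (adjusted p = 0.281).

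Ddit3, which encodes the transcription factor CHOP, had 1219, 777 and 414 in LeuD against 198, 214 and 202 in Control. Replicate 1 was highest and replicate 3 lowest among the LeuD mice, all of them above the narrow Control range (1.84 ± 0.36, adjusted p = 0.205, and 0.0185 in the fit of 12 libraries). Atf3, another stress-induced transcription factor, had 619.6, 427 and 106 in LeuD against 48.4, 82.6 and 41.6 in Control (2.45 ± 0.63). Cdkn1a, the cell cycle inhibitor p21, had 4048, 1543 and 529.7 in LeuD against 98, 281 and 184 in Control (3.11 ± 0.71). All LeuD mice were above Control, and it passed in the fit of 12 libraries (adjusted p = 0.0267). In WT at CT03 the diet difference of Cdkn1a was 2.37 ± 0.16, and the test of diet by genotype did not show a difference between genotypes (adjusted p = 0.694).

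Several enzymes of the ISR list split the LeuD mice. Psat1, of serine synthesis, had 619.6, 832 and 23.9 in LeuD against 19.8, 30.7 and 33.3 in Control, and Phgdh, the first enzyme of that route, had 269, 382 and 33.3 in LeuD against 3.3, 30.7 and 26 in Control. Mthfd2, a mitochondrial folate enzyme, had 427, 482 and 77 in LeuD against 35.2, 66.7 and 50.9 in Control (2.33 ± 0.68), and its neighbour in that pathway Aldh1l2 had 62.7, 70.8 and 20.8 in LeuD against 7.71, 6.35 and 10.4 in Control. In each of these, replicates 1 and 2 were several times above Control, while replicate 3 was near it: within the Control range for Psat1, slightly above it for Phgdh and Mthfd2, and more clearly above for Aldh1l2. Pycr1, an enzyme of proline synthesis, had 63.6, 72.5 and 22.9 in LeuD against 13.2, 22.2 and 13.5 in Control and also did not overlap. Of the same routes, Psph, the last enzyme of serine synthesis, overlapped (0.38), and Shmt2 lay below (-0.51). Psph, Phgdh and Pycr1 lie outside the rule for named genes and were chosen after their values were seen. Asns, which makes asparagine, had 3199.8, 2847 and 404 in LeuD against 600.0, 249 and 405 in Control; replicates 1 and 2 were above all Control mice and replicate 3 was among them. Without replicate 3 the differences of Psat1, Mthfd2 and Asns were 4.67, 3.18 and 2.94 (adjusted p = 0.00448, 0.0115 and 0.014).

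**Figure D1:**
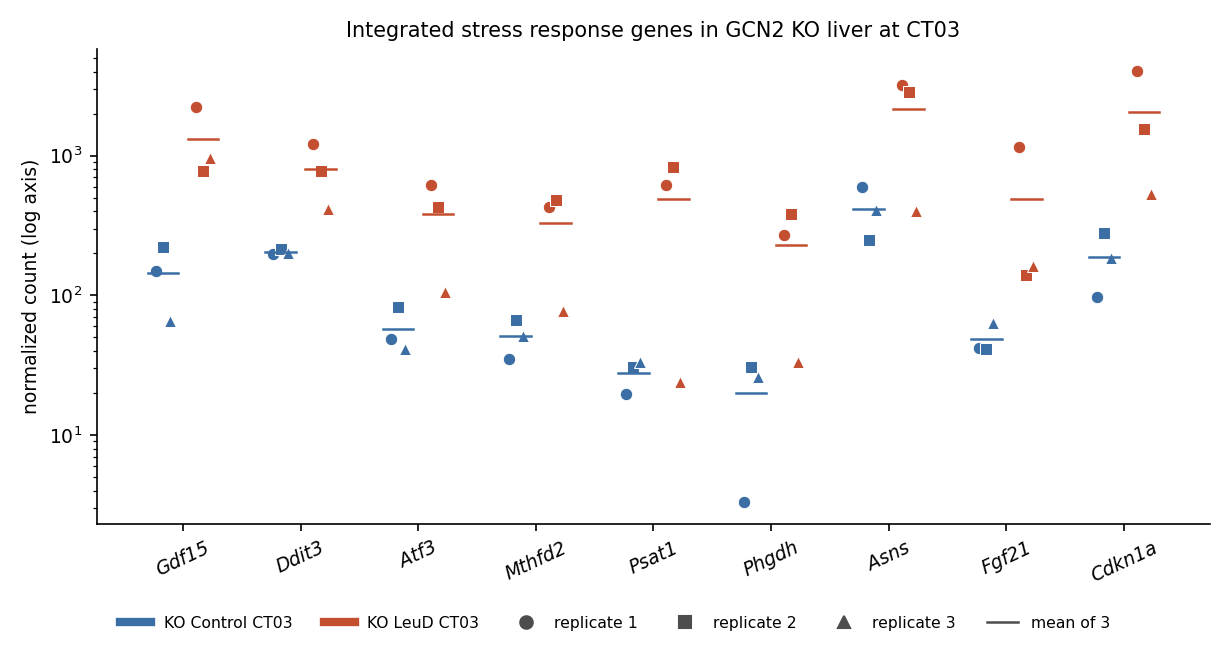
Normalized counts (log axis) of 9 stress response genes in each KO liver at CT03; markers give the replicate and bars the arithmetic mean of 3 mice. LeuD replicates 1 and 2 lie above the Control libraries in every gene shown, and replicate 3 reaches down to the Control range in Psat1 and Asns.

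Fgf21, a liver hormone of the fasting and amino acid response, had 1158, 139 and 162 in LeuD against 41.8, 41.3 and 63.4 in Control. All LeuD mice were above Control, replicate 1 by far the most, and the difference was 2.61 ± 0.76 (adjusted p = 0.277). Without replicate 1, the library with the high acinar markers, it was 1.63. Without both acinar libraries it was 1.83 in Fgf21, 2.24 in Gdf15, 1.74 in Atf3 and 2.44 in Cdkn1a. Other members of the fixed ISR set overlapped. Atf4 itself had 4788, 5439 and 6209.5 in LeuD against 3355, 4818 and 2828 in Control, Trib3, a pseudokinase that feeds back on the ISR, 1046, 1473 and 258 in LeuD against 662, 155 and 900.1 in Control, and Chac1, which degrades glutathione, 70.9, 221 and 108 in LeuD against 71.6, 209 and 49.9 in Control. Sesn2, a leucine sensor upstream of mTORC1, had 544, 706 and 322 in LeuD against 337, 290.1 and 622 in Control, and Atf5, a relative of ATF4, 69853, 41933 and 24126 in LeuD against 12094, 17812 and 36683 in Control. Control replicate 3 was the highest of the Control mice in Trib3, Sesn2 and Atf5. In WT at CT03 the differences of Trib3, Chac1 and Atf5 were 2.29, 1.43 and 1.44, larger than in KO (0.70, 0.39 and 1.05). Those of Atf4 and Sesn2 were 0.10 and 0.03, smaller than in KO (0.61 and 0.34). In the test of diet by genotype, 8 ISR members had a larger difference in KO and 1 a smaller one at an unadjusted p under 0.05. The shares of all genes were 6.32% and 6.85%, and no gene passed.

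Of the groups linked to the ISR, ER genes and synthetases were high in LeuD replicates 1 and 2 and not in replicate 3. The ER chaperones and unfolded protein response genes (24 measured) had a median difference of 0.45 with 2 members above in all libraries and 0 below. By library the LeuD medians were 0.80, 0.69 and -0.42 and the Control medians -0.11, 0.37 and -0.28. Without both acinar libraries 2 members lay above and 2 below, and of all 14888 genes 2893 and 3025. Derl3, which helps remove misfolded ER proteins, had 1696, 2356 and 38.5 in LeuD against 27.5, 91 and 54 in Control. Replicates 1 and 2 lay far above every Control mouse, and replicate 3 lay among the Control mice. Of 20 cytosolic aminoacyl-tRNA synthetases, which charge transfer RNA with amino acids, 3 lay above and 1 below. Their median was 0.31 (LeuD medians 0.53, 0.45 and -0.03, Control -0.02, 0.03 and 0.02), and without both acinar libraries 3 lay above and 2 below. Sars, the serine enzyme, had 5203, 5777 and 3033 in LeuD against 2448, 2618 and 2694 in Control (0.80 ± 0.24). Without LeuD replicate 3, limma called 7 of the ER genes and 8 of the synthetases higher and 0 of either lower. Amino acid transporters (27 measured) were mixed, with 6 above and 4 below and a median of 0.12 (LeuD medians 0.25, 0.15 and 0.04). Slc3a1, a subunit of the cystine and dibasic amino acid transporter, had 3660.5, 4598 and 1921 in LeuD against 1214, 1439.7 and 1824 in Control. The leucine sensing and mTORC1 genes (35 measured) had 3 above and 8 below, and a median of -0.10 (LeuD medians -0.10, -0.11 and -0.08).

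Cytosolic ribosomal protein genes were higher on LeuD in nearly every member. Of 82 measured members, 76 had all LeuD libraries above all Control libraries and 0 lay below, and 81 had a positive difference with a median of 0.70 (1.01 at most). Replicate 3 took part: relative to the Control mean, the list median was 0.77, 0.62 and 0.70 in LeuD replicates 1, 2 and 3. Summed over the list, these genes took 3.10%, 2.99% and 2.81% of reads in LeuD and 1.81%, 1.76% and 1.82% in Control. Albumin, the most abundant of the hepatocyte markers, took a larger share on LeuD in the same libraries, as given above, and its part in these shares was not tested. The fit of 12 libraries called 68 members higher and 0 lower, the authors' deposited table lists 68 and 0, and without LeuD replicate 3 limma called 50 and 0. Without both acinar libraries 78 lay above and 0 below. With fewer libraries separation is easier, and 2893 of all 14888 genes then lay above and 3025 below.

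Rpl36a, Rps26, Rpl17 and Rps13, parts of the large (Rpl) and small (Rps) subunits, were among the 6 higher genes with the lowest p in the table, counting established symbols with a mean of at least 50. Rps26 had 11619, 9846 and 9247 in LeuD against 4975, 4778 and 5578 in Control, a difference of 0.999 ± 0.14 (adjusted p = 0.189, and 0.0112 in the fit of 12 libraries). Rpl36a had 6077, 5227 and 5908 in LeuD against 3254, 3004 and 3129.5 in Control (0.87 ± 0.12), so the LeuD and Control mice each stayed within a narrow range. Rps13 had 8455, 8339.5 and 7822 in LeuD against 4786, 4497 and 5075 in Control (0.78 ± 0.12) and Rpl17 16106, 14812 and 16411 in LeuD against 8544, 8782 and 9114 in Control (0.84 ± 0.13). The largest difference of the list was in Rpl12, at 1.01. Ribosomal protein genes have many processed copies in the genome, and how reads that fit several places were counted is not given in the sources used here, so single members are less certain than the group.

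Messengers of ribosomal proteins are known to begin with a run of pyrimidines (C or T), the element through which mTORC1 controls their translation. The start of 4 members is shown for this reason, from 10 bases before to 20 after the RefSeq start (GRCm38.p6), with the longest pyrimidine run in capitals.
Rps26 (chr10:128626487-128626516, minus strand): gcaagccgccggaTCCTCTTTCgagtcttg
Rpl27a (chr7:109519185-109519214, plus strand): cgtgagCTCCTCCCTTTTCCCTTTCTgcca
Rpl35 (chr2:39005112-39005141, minus strand): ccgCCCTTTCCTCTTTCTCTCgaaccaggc
Rpl15 (chr14:18270967-18270996, minus strand): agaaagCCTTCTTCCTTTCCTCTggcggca
A run of at least 8 pyrimidines within 10 bases of the start was present in 30 of the 61 ribosomal protein genes with a window (49.2%). The share was 16.1% of all genes and 17.5% of the listed genes with a window. The rest of these 61 did not hold such a run in this window, and members without a window were not examined. The 3 shown beside Rps26 have the longest runs among members whose LeuD libraries all lay above Control and whose run lies within the printed bases: Rpl27a had 14541, 12983 and 13536 in LeuD against 8374, 8098 and 8347 in Control, Rpl35 7862, 7035 and 6844 in LeuD against 4501, 4113 and 4562 in Control and Rpl15 8200.4, 7871 and 6935 in LeuD against 5626, 4692 and 4977 in Control. They were chosen by sequence after the values were seen.

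The same list was higher on LeuD in the other comparisons, with smaller medians. In WT mice at CT03, 62 of 82 members lay above and 1 below, with a median of 0.39. In KO mice at CT15, 48 lay above and 0 below, with a median of 0.36. The test of diet by genotype at CT03 called 0 of 14497 genes (0.0%) with 1909 at an unadjusted p under 0.05, and edgeR called 1, Phlpp1. At that unadjusted p the diet difference was larger in KO than in WT for 27 ribosomal protein genes and smaller for 0, where 6.32% of all genes were larger and 6.85% smaller. Without KO LeuD replicate 3, limma called 1 of these genes for diet by genotype. The test of diet by time in KO called 0 of 14512 genes (0.0%), with 928 at an unadjusted p under 0.05 (edgeR 0, with 956). Translation factors (38 measured) had 10 members above and 3 below in KO at CT03, with a median of 0.16. Eef1b2, an exchange factor of elongation, had 11233, 9597 and 8909 in LeuD against 6269, 5469.7 and 6249 in Control (0.72 ± 0.14), and the initiation factor Eif1a 4401, 3866 and 3244 in LeuD against 2105, 2517 and 2366 in Control (0.71 ± 0.15). Both had all LeuD mice above Control.

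**Figure D2:**
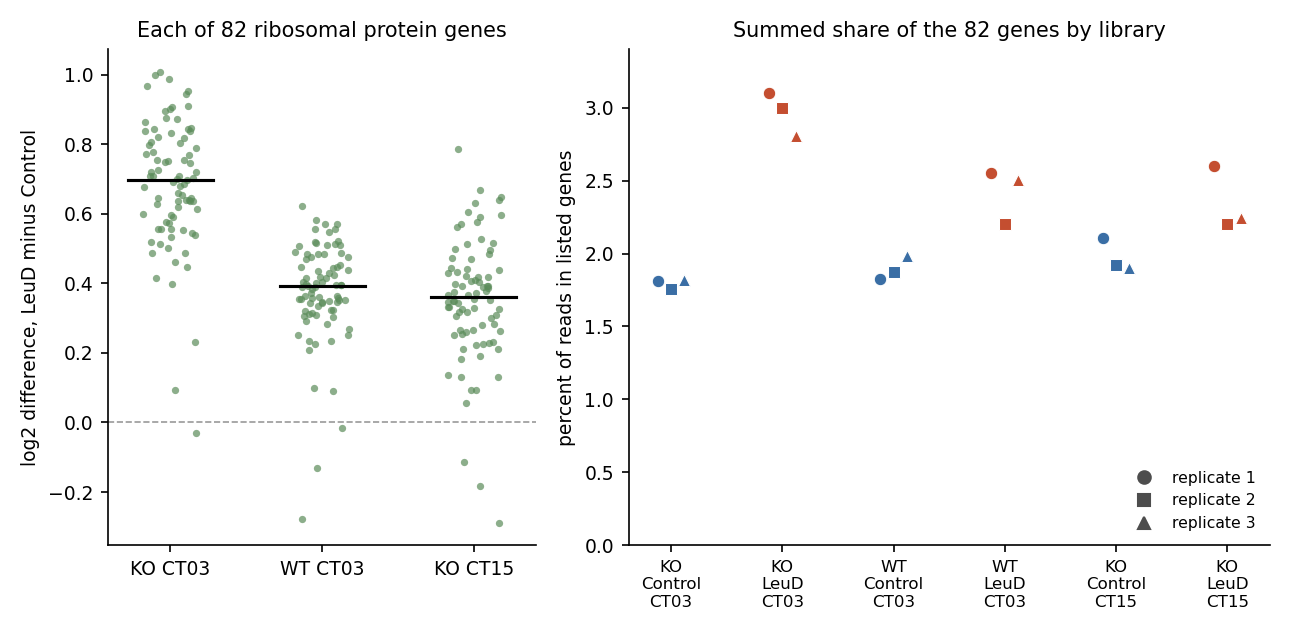
Left, log2 difference between LeuD and Control for each ribosomal protein gene in KO at CT03, WT at CT03 and KO at CT15, with bars at the medians (0.70, 0.39 and 0.36). Right, percent of reads in the 82 genes by library; the KO LeuD libraries at CT03 sit at 2.81 to 3.10, above their Control libraries at 1.76 to 1.82.

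Genes that break down branched-chain amino acids were lower on LeuD. This pathway degrades leucine, isoleucine and valine in mitochondria, from the transaminases through the branched-chain keto acid dehydrogenase to acetyl-CoA and propionyl-CoA. Of 24 measured members 15 had all LeuD libraries below all Control libraries and 0 lay above, 23 had a negative difference, and the median was -0.55. By library the list median was -0.67, -0.72 and -0.26 in LeuD and 0.00, 0.01 and 0.01 in Control. The fit of 12 libraries called 7 members lower and 0 higher, as many as the authors' deposited table lists, and without LeuD replicate 3 limma called 14 lower and 0 higher.

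Mccc1 and Mccc2 encode the carboxylase specific to leucine breakdown. Mccc1 had 1438, 1717 and 1974 in LeuD against 2954, 3231 and 2603 in Control (-0.78 ± 0.16, adjusted p = 0.206, and 0.0183 in the fit of 12 libraries), and Mccc2 1290.1, 1505 and 1705 in LeuD against 2384, 2218 and 2147 in Control (-0.59 ± 0.14). In both, all 3 LeuD mice were below all Control mice. Hibch, of valine breakdown, had 2214, 1626 and 2267 in LeuD against 3513, 3441 and 3251 in Control (-0.76 ± 0.16), and Pcca, a subunit of propionyl-CoA carboxylase, 1681, 1937 and 2897 in LeuD against 4349, 4844 and 3403 in Control (-0.98 ± 0.23). These too did not overlap. Bcat2 and Bckdk, which encode a transaminase and the inhibitory kinase of the dehydrogenase, were near 0 at 0.05 and 0.00 and overlapped.

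In the WT comparison at CT03 3 members lay above and 2 below, with a median of -0.03. Mccc1 differed by 0.00 ± 0.09 in WT, where LeuD had 2555, 2701 and 2713 and Control 2886, 2561 and 2513. In the test of diet by genotype 14 of the 24 members had an unadjusted p under 0.05 with a lower diet difference in KO and 0 with a higher one. None of these passed the adjustment in all 12 libraries, as no gene did. For Mccc1 the difference between genotypes was -0.79 ± 0.18 (adjusted p = 0.251). Without KO LeuD replicate 3 the same test called 14 members lower in KO, where it called 3.24% of all genes higher and 4.1% lower. At CT15 the KO livers had 11 members below and 0 above, with a median of -0.36.

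**Figure D3:**
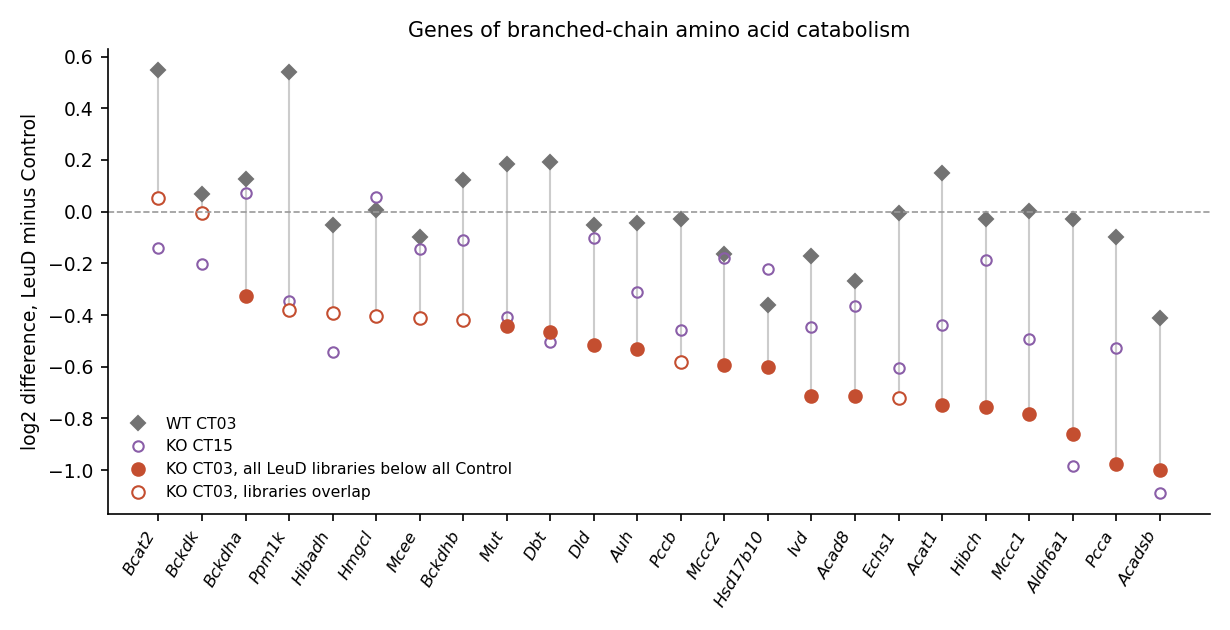
Log2 difference between LeuD and Control for 24 genes of branched-chain amino acid catabolism, ordered by the value in KO at CT03; filled red circles mark members without overlap there (15), grey diamonds WT at CT03, and open purple circles KO at CT15. The KO values at CT03 have a median of -0.55 and the WT values one of -0.03.

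Other amino acid catabolism was lower in part. In the urea cycle and amino acid list (41 measured) 11 members lay below and 1 above, with a median of -0.45 (LeuD medians -0.57, -0.63 and -0.19, Control -0.13, -0.16 and 0.25). Otc, a urea cycle enzyme, had 6188, 6735 and 9752 in LeuD against 17821, 13985 and 12067 in Control (-0.96 ± 0.22), and Aass, the first enzyme of lysine breakdown, 5923, 6595 and 10146 in LeuD against 14453, 12521 and 25330.2 in Control (-1.18 ± 0.31). Both were lower in all LeuD mice. Bhmt, which remethylates homocysteine, had 98418, 73199.6 and 155794 in LeuD against 190962, 283002 and 392692 in Control (-1.41 ± 0.41), again with no overlap and a wide spread in each group. The member above was Glud1, glutamate dehydrogenase, at 82574, 120096 and 89982 in LeuD against 53490.5, 56796 and 41143 in Control (0.95 ± 0.25). Limma called 12 members lower and 0 higher without LeuD replicate 3. For WT mice at CT03 the list had 5 above and 4 below and a median of 0.01.

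Some genes of glucose metabolism were lower in all LeuD mice. Of 26 genes of glycolysis, gluconeogenesis and glycogen, 9 lay below and 0 above, with a median of -0.43. Pcx, which starts gluconeogenesis from pyruvate, had 11629, 10324 and 16585 in LeuD against 22636, 22547 and 24885 in Control (-0.89 ± 0.20). G6pc, the catalytic subunit of glucose-6-phosphatase, had 6630.4, 6878 and 7255 in LeuD against 10311, 14135 and 14235 in Control (-0.88 ± 0.16), and its partner Slc37a4, the glucose-6-phosphate transporter, 3872, 3216 and 4006 in LeuD against 6122, 5974 and 6575 in Control (-0.76 ± 0.13). Their LeuD mice, replicate 3 included, were all below Control. Gys2, the liver glycogen synthase, had 2771, 2143 and 3434 in LeuD against 7207, 4746 and 9046 in Control (-1.31 ± 0.27, adjusted p = 0.0224 in the fit of 12 libraries). Ppargc1a, a coactivator of gluconeogenesis and mitochondrial genes, had 229.9, 225 and 256 in LeuD against 321, 489 and 542 in Control (-0.89 ± 0.22). Without LeuD replicate 3 limma called 5 of the 26 lower and 0 higher. The list median was -0.22 without LeuD replicate 2 and -0.25 without Control replicate 2. In WT the glucose list had 1 member above and 3 below and a median of -0.03.

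In some insulin-regulated and fasting genes Control replicate 3 stood apart from its group. Igfbp1, repressed by insulin, had 11142, 11841 and 7449 in LeuD against 598, 776 and 10516 in Control; Control replicate 3 was at the level of the LeuD mice. Without it the difference was 3.87 (adjusted p = 0.0157), one of 5 genes called then, the others being Mcm10, Nudt7, Mup2 and Adh6-ps1, all lower. Nudt7, a peroxisomal coenzyme A hydrolase, had 3229.8, 3745 and 3226 in LeuD against 21891, 20123 and 2294 in Control, so this mouse also was like the LeuD mice there. Pck1, of gluconeogenesis, was highest in that mouse, at 50065, 21102 and 41423 in LeuD against 63328, 32453 and 187762 in Control. So was Cyp4a14, a target of the fasting receptor PPARα, at 47499.7, 3119 and 37017 in LeuD against 4568, 4005 and 223630.0 in Control. Both genes overlapped between the diets. Scd1, the main desaturase of fat synthesis, was lowest there (385576, 350140.0 and 15084 in Control, 94407, 430661 and 126805 in LeuD). Its acinar marker level is given above, and its part in these values was not tested.

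Lipid synthesis genes had no uniform difference. The fatty acid and triglyceride list (24 measured) had 5 below and 0 above and a median of -0.45, with Control medians of 0.24, 0.85 and -1.07. Cholesterol synthesis genes (23 measured) had 0 in either direction. Mfsd2a, a transporter of lysophospholipids, had the lowest difference of the list, at 144, 70.8 and 163 in LeuD against 548, 421 and 438 in Control (-1.96 ± 0.32). Elovl5, an elongase of polyunsaturated fatty acids, had 14706, 8407 and 23328 in LeuD against 31262, 38869 and 35975 in Control (-1.31 ± 0.35), and Acacb, the acetyl-CoA carboxylase of the mitochondrial surface, 1262, 770.1 and 1229 in LeuD against 4188, 6620.4 and 1595 in Control (-1.74 ± 0.49). In these 3 genes the LeuD mice were below all Control mice. In WT at CT03 the list had 9 below and 0 above, with a median of -0.56.

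Bile acid genes (23 measured) had 4 below, 0 above and a median of -0.49. Slc10a1, the uptake carrier of bile salts, had 12907, 10599 and 20759.7 in LeuD against 29911, 27928 and 29391 in Control (-1.04 ± 0.25), and Cyp8b1, which makes cholic acid, 4046, 2759 and 8949.5 in LeuD against 9342, 13311 and 21818 in Control (-1.59 ± 0.47). The median was -0.74 without LeuD replicate 3, and 7 members were then called lower. In WT the list had 3 above and 0 below. For Slc10a1 the difference between genotypes was -1.06 ± 0.38 (adjusted p = 0.324, and 0.0356 without KO LeuD replicate 3).

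Mitochondrially encoded genes, all subunits of the respiratory chain and ATP synthase, were lower in 7 of 13 members in all LeuD libraries and higher in 0, with a median of -0.79 (LeuD medians -1.20, -0.96 and -0.20). They summed to 2.21%, 2.83% and 4.10% of reads in LeuD and 4.26%, 5.10% and 4.85% in Control. mt-Co3, of complex IV, had 85.4, 83.7 and 140.5 in LeuD against 167, 248 and 229 in Control (-1.07 ± 0.27), and mt-Nd3, of complex I, 168, 199 and 282 in LeuD against 461, 383 and 326 in Control (-0.87 ± 0.23). In both, replicate 3 was the highest of the LeuD mice and still below Control. Without replicate 3 limma called 5 of the 13 lower. Nuclear copies of mitochondrial genes make the reads of single members uncertain. At CT15 10 of 13 lay below in KO (median -0.81), and in WT at CT03 5 of 13 (median -0.50). Nuclear-encoded subunits were mostly overlapping, with 10 of 73 below, 1 above and a median of -0.08. Ndufs1, of complex I, had 3403, 3361 and 3930.5 in LeuD against 5500.2, 5293 and 5224 in Control (-0.59 ± 0.12, adjusted p = 0.025 in the fit of 12 libraries) and Sdha, of complex II, 14015, 14920.4 and 21541 in LeuD against 27809, 29218 and 24823 in Control (-0.72 ± 0.20).

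**Figure D4:**
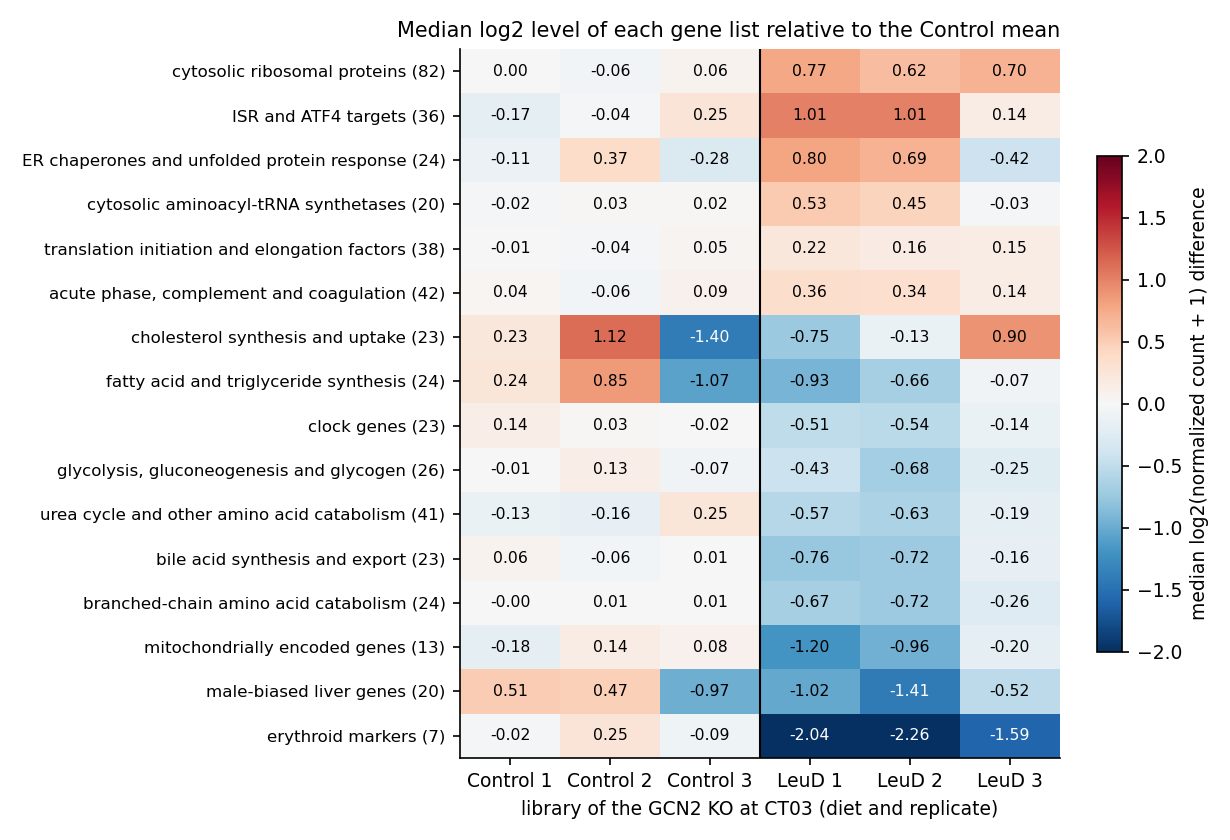
Median log2 level of 16 gene lists in each library relative to the mean of the 3 Control libraries, with the number of genes in parentheses and the value in each cell. Ribosomal protein genes and erythroid markers have similar medians in all 3 LeuD libraries (0.62 to 0.77 and -2.26 to -1.59), whereas the ISR list is at 1.01, 1.01 and 0.14.

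The lowest p of the comparison belonged to haemoglobin. Hbb-bs, a β-globin, had 1221, 1051 and 1586 in LeuD against 5218, 5063 and 4826 in Control, a difference of -1.99 ± 0.17 (adjusted p = 0.0659, and 0.0112 in the fit of 12 libraries). Every LeuD mouse was far below every Control mouse, and with total-count scaling Hbb-bs was the 1 gene called. Hbb-bt had 181, 142 and 241 in LeuD against 784, 949.6 and 786 in Control (-2.18 ± 0.22), Hba-a2, an α-globin, 147, 127 and 188 in LeuD against 527, 539 and 466 in Control (-1.74 ± 0.19), and Hba-a1 1095, 929.9 and 1439 in LeuD against 2616, 4236 and 4069 in Control (-1.65 ± 0.24). Of 7 erythroid markers 6 lay below in all libraries, with a median of -1.99, and their summed level was 83.1 to 129 RPM in LeuD and 278 to 384 RPM in Control. Limma called 5 of them lower in the fit of 12 libraries and 6 without LeuD replicate 3. These are markers of red blood cells, and how much blood each sample held was not measured. The α-globin copies, and the β-globin copies, are nearly identical in sequence, so how reads were split within each pair is uncertain. In WT at CT03 6 of 7 also lay below (median -1.41), and in KO at CT15 1 did (median -0.83). Of the other marker lists, each with 2 to 13 genes, endothelial markers summed to 399 to 452 RPM on LeuD and 373 to 468 RPM on Control, stellate cell markers to 311 to 408 and 352 to 388, and Kupffer cell markers to 428 to 812 and 455 to 601. Lymphocyte markers summed to 17.2 to 34.6 RPM on LeuD and 17.6 to 24.1 RPM on Control, neutrophil markers to 2.43 to 6.68 and 1.91 to 2.79, cholangiocyte markers to 36.4 to 78.2 and 31.1 to 46.2, and adipocyte markers to 1.41 to 4.78 and 2.88 to 8.53. These 7 ranges overlap between the diets. The 12 hepatocyte markers summed to 164729 to 176663 RPM on LeuD and 137916 to 148638 RPM on Control. Albumin, 1 of the 12, took 11.8% to 12.3% of reads on LeuD and 8.48% to 9.47% on Control. By gene, 5 of the 12 had a positive difference and 7 a negative one. In this list 1 member lay above and 1 below, and the median was -0.08, so the sums do not describe the list as a whole.

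**Figure D5:**
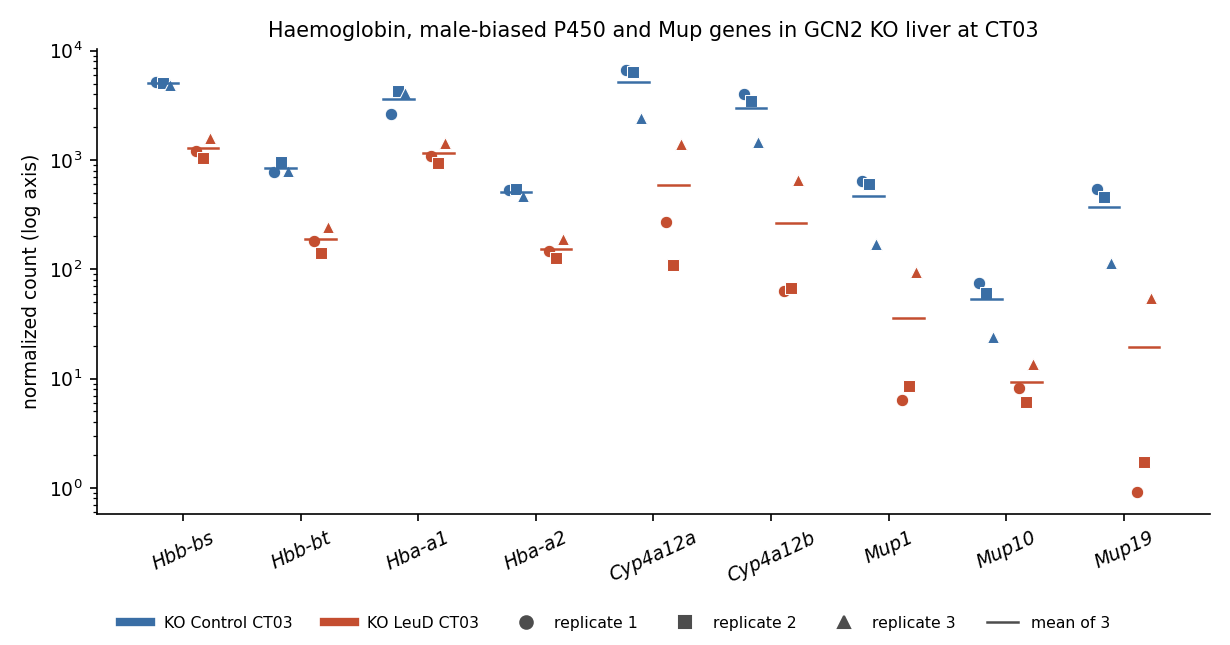
Normalized counts (log axis) of haemoglobin, male-biased cytochrome P450 and major urinary protein genes in each KO liver at CT03; markers give the replicate and bars the arithmetic mean of 3 mice. The globin genes separate the diets in all replicates, and in the other genes replicate 3 of both diets lies between the remaining mice.

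Major urinary protein genes, which encode pheromone carriers made mainly in male liver, were lower in 9 of 17 members in all libraries and higher in 0, with a median of -4.13. Limma called 7 lower in the fit of 12 libraries and 8 without LeuD replicate 3. Summed over the list, these genes took 0.53%, 0.26% and 0.60% of reads in LeuD and 1.67%, 1.29% and 0.56% in Control. The sums therefore overlapped, with Control replicate 3 within the LeuD range. Mup3 and Mup20, which held the most counts of the list, overlapped between the diets, with differences of -1.28 and -1.12. Mup1 had 6.36, 8.63 and 93.7 in LeuD against 639, 608 and 170.5 in Control, Mup19 0.909, 1.73 and 55.2 in LeuD against 537, 457 and 114 in Control and Mup10 8.18, 6.04 and 13.5 in LeuD against 74.9, 60.3 and 23.9 in Control. LeuD replicates 1 and 2 were lowest, LeuD replicate 3 and Control replicate 3 were in the middle, and the remaining Control mice were highest. Mup9 had 0, 0.863 and 10.4 in LeuD against 71.6, 74.1 and 19.7 in Control. The copies of this family are nearly identical, so the reads of single members are uncertain. Cyp4a12a and Cyp4a12b, male-biased fatty acid hydroxylases, had the same grouping of mice. Cyp4a12a was at 271, 111 and 1388 in LeuD against 6609.9, 6399 and 2427 in Control (-3.75 ± 0.87) and Cyp4a12b at 63.6, 67.3 and 658 in LeuD against 4051, 3486 and 1474 in Control (-4.27 ± 0.89), and the pair is nearly identical too. The list of male-biased genes as a whole (20 measured) had 2 members below, 0 above and a median of -1.06. In WT at CT03 12 of these 20 lay below and 0 above, with a median of -1.03. In KO at CT15 1 lay below and 0 above, with a median of -0.48. Cyp2a4, a female-biased P450, was high in LeuD replicates 1 and 2 alone, at 9177, 826 and 34.3 in LeuD against 25.3, 19.1 and 36.4 in Control; it has a close copy, Cyp2a5, so its reads too are uncertain. Among WT mice 7 of 17 Mup genes lay below at CT03, with a median of -0.93. The summed share in WT (18 genes measured) was 0.79%, 0.82% and 0.63% in LeuD and 1.17%, 1.69% and 1.69% in Control, without overlap. The difference between genotypes in Mup1 was -4.17 ± 1.15 (adjusted p = 0.281, and 0.00447 without KO LeuD replicate 3). In Mup3 it was -0.36 and in Mup20 0.51, where the WT difference was -1.63. At an unadjusted p under 0.05 in that test, 8 of the 17 had a lower diet difference in KO and 0 a higher one. The shares of all genes were 6.85% and 6.32%.

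Genes for secreted liver proteins went both ways. Of 42 acute phase, complement and coagulation genes 9 lay above and 3 below, with a median of 0.26. Without LeuD replicate 3 limma called 6 higher and 2 lower. Apcs, serum amyloid P, had 15326, 11576 and 5773 in LeuD against 2704, 1983 and 3081 in Control (1.98 ± 0.36), and Hamp, the iron hormone hepcidin, 28619, 26406 and 51024 in LeuD against 17274, 9359 and 14625 in Control (1.34 ± 0.32), its highest value being in LeuD replicate 3. Saa3, an acute phase protein, had 419, 228 and 145 in LeuD against 71.6, 45.5 and 100.8 in Control (1.78 ± 0.44). All of these were higher in every LeuD mouse, while F7, coagulation factor VII, was lower in every one, at 2201, 2040.2 and 3849 in LeuD against 4812, 4531 and 4719.7 in Control (-0.86 ± 0.24). Enho, which encodes the peptide adropin, had 1969.7, 1922 and 862 in LeuD against 220.2, 223 and 494 in Control (2.35 ± 0.42).

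The remaining genes of lowest p included the linker histone gene Hist1h1c, at 6142, 3874 and 3981 in LeuD against 1596, 1744 and 1861 in Control (1.40 ± 0.20), and Grhl1, a grainyhead-like transcription factor, at 128, 83.7 and 79.1 in LeuD against 20.9, 30.7 and 23.9 in Control (1.89 ± 0.30). On the lower side, Mcm10, a DNA replication factor, had 843, 769 and 863 in LeuD against 3796, 2804 and 2134 in Control (-1.78 ± 0.21) and Them7 566, 543 and 651 in LeuD against 1222, 1574 and 1272 in Control (-1.20 ± 0.15). All 4 separated the diets with replicate 3 on the LeuD side, and each passed in the fit of 12 libraries (adjusted p = 0.0185, 0.0227, 0.0112 and 0.00642). The cell cycle list (30 measured) had 3 above and 2 below and a median of 0.46, with Ccnd1, cyclin D1, at 1230.2, 1207 and 1067 in LeuD against 821, 767 and 655 in Control (0.65 ± 0.14). The list median was 0.02 without both acinar libraries. Limma called 7 higher and 1 lower without LeuD replicate 3. The cell cycle list in WT at CT03 had 2 above and 5 below and a median of -0.72. In KO at CT15 18 of 29 lay above and 0 below.

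Interferon-stimulated genes of KO mice had few members apart at CT03 and many at CT15. At CT03 in KO 4 of 34 lay below and 0 above, with a median of -0.08. Without LeuD replicate 3 the median was 0.15, and limma called 4 higher and 2 lower, so the direction of the list rests on that library. In WT at CT03 14 of 34 lay below and 0 above, with a median of -0.37. The antiviral effector Oasl1 had 396, 514 and 436 in LeuD against 680.4, 1000.4 and 942 in Control (-0.95 ± 0.19), and Ifit1, another, 224, 300.5 and 157 in LeuD against 466, 517 and 473 in Control (-1.14 ± 0.24). Mx2, a dynamin-like antiviral protein, had 100.8, 112 and 167 in LeuD against 176, 234 and 259.8 in Control (-0.83 ± 0.25). All LeuD mice were below Control in these genes. At CT15 29 of 34 lay above and 0 below, with a median of 1.64. The difference of Oasl1 was 2.25 at CT15, where LeuD had 1362, 2798 and 1240.3 and Control 103, 1055 and 401. In the test of diet by time no gene passed, and Oasl1 had an adjusted p of 0.638 by limma.

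Single Control mice stood apart in clock genes. Arntl, which encodes the clock activator BMAL1, had 1252, 1275 and 1365 in LeuD against 238, 1177 and 987 in Control, and Dbp, a clock output, 47.2, 95.8 and 126 in LeuD against 3560.4, 56.1 and 583 in Control. Control replicate 1 was far from the other Control mice in both, and the diets did not overlap in Arntl (0.99 ± 0.55, and 0.27 without Control replicate 1) but did in Dbp (-2.55 ± 1.32, and -1.12 without Control replicate 1). Nfil3, a repressor that opposes Dbp, had 1703, 1468 and 2026 in LeuD against 692, 1311 and 1276 in Control (0.71 ± 0.26) and Upp2, a clock-controlled liver enzyme, 1480.0, 1618 and 1585 in LeuD against 8665, 3275 and 4456 in Control (-1.69 ± 0.32). Of 23 clock genes 2 lay above and 1 below. The WT mice at CT03 had 6 above and 7 below.

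Across genes, the diet differences in KO at CT03 had a Pearson correlation of 0.19 with those in WT at CT03 (14497 genes) and of 0.53 with those in KO at CT15 (14512 genes). The comparisons share no library. Genes are not independent replicates, and these values are descriptions with no test.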

How the data were processed

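Liver messenger RNA was enriched with oligo(dT) and made into libraries with the NEBNext Ultra II kit, per the labels' protocols. This kit does not mark strand. The submitters' processing notes name Trimmomatic 0.36, STAR 2.5.2b, featureCounts, Subread 1.5.2, DESeq, DESeq2 and the build GRCm39; how each was set or used is not given in the sources used here. The deposited tables hold 1 signal per gene and library, a normalized count, and the authors' log2 fold change with its p-value and adjusted p-value, per the file headers. The diet tables of KO at CT03 and CT15 and of WT at CT03, and the tables of time in KO on each diet, were read. Dividing each library's values by the value of 1 read in that library gave whole reads for 100% of values within a tolerance of 0.01.

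The test was limma 3.58.1 (R 4.3.3) on log2 of the normalized counts after adding 1, with the prior variance following the mean level, 3 mice against 3, and Benjamini-Hochberg adjustment over all genes. A pseudocount of 1 understates the change of low genes. With 3 against 3, an exact permutation test cannot go below p = 0.1, so none is given for single genes. edgeR 4.0.16 and DESeq2 1.42.0 ran on the recovered reads as alternatives. Interactions of diet with genotype or time used 12 libraries each. The scripts were tested on simulated data with known changes. Replicates differed beyond counting noise (chi-square divided by its degrees of freedom, 43.1 to 243). Same-numbered LeuD and Control libraries had correlations of deviations of -0.23, 0.21 and -0.18. These did not show a pairing of mice by number, and with 3 mice a group they cannot exclude one.

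The 45 gene lists, 10 of them cell type markers, were chosen with earlier results of these data known. Named genes were Eif2ak4, the 6 genes of lowest p in each direction, up to 4 of lowest p in each list, a fixed set of stress, clock and metabolic genes and genes in counts of 5 or fewer. Psph, Phgdh, Pycr1, Nudt7, Rpl12, Rpl27a, Rpl35 and Rpl15 were added after their values were seen. Promoter sequences came from RefSeq on GRCm38.p6, so gene coordinates on the files' build are not given.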

Additional observations from a re-analysis of the deposited data

How the results depend on the processing

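Limma called 0 genes for diet in KO at CT03, and so it did with pseudocounts of 0.5 and 10, a mean filter of 10, TMM scaling, and without both libraries above 200 RPM of acinar markers. The count was 1 with total-count scaling, 520 with DESeq2, 331 with the spread of 12 libraries at CT03 (308 in edgeR) and 27 with that of 12 KO libraries, an alternative chosen after seeing the data. Without 1 library in turn it ran from 0 to 1234. Leaving out LeuD replicate 3 gave the 1234 (1132 in edgeR, also chosen after seeing the data), leaving out Control replicate 3 gave 5, and the others 0. For diet by genotype the count of 0 became 1 in edgeR (Phlpp1) and 0 to 1064 without 1 library in turn, with 1064 without KO LeuD replicate 3 and 1 without KO Control replicate 3 (Nudt7) or 1 (Gm42047). For diet by time it was 0 to 1, the 1 being Arfgap3 without KO LeuD replicate 3. With the replicate number as a block each of the 3 counts was 0. Whether the numbers pair mice could not be settled from the correlations of deviations, so the block is given as an alternative setting only.

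Of 88 genes recomputed, 4 changed sign when 1 library was left out. Over the 6 fits without 1 replicate, Trib3 ran from -0.069 (without Control replicate 2) to 1.46 and Chac1 from -0.051 (without LeuD replicate 2) to 0.99, with -0.035 without Control replicate 3. Scd1 ran from -1.09 (without Control replicate 3) to 1.25, and Cyp4a14 from -0.86 (without Control replicate 2) to 2.04. Scd1 was also -0.20 in edgeR, in DESeq2 and in edgeR with 12 libraries, and -0.65 without the acinar libraries. Cyp4a14 was -1.40 in edgeR, -1.41 in DESeq2, -1.60 in edgeR without LeuD replicate 3 and -1.40 in edgeR with 12 libraries. Of the 45 list medians over these settings, 822 values moved by less than the spread between replicates and 33 by more, and 30 had the other sign. The cause of these moves was not tested. The limma fits that change only the spread or add the block leave the difference of each gene as it was. Part of the 822 was therefore fixed in advance. With 3 mice a group, 1 of them near the other group, a count of 0 says little about which genes differ.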

Other observations

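The remaining gene lists, described in the same way in KO at CT03, were mostly mixed. Glutathione and NRF2 targets, which detoxify reactive compounds, had 4 of 26 members with all LeuD libraries above Control and 1 below, with a median of 0.31 (9.39% and 9.79% of all genes). Heat shock chaperones had 2 of 20 above and 0 below (median 0.10), and without both acinar libraries their median was -0.14. Fatty acid oxidation and PPARα targets had 1 of 36 above, Fgf21, and 8 below (median -0.49), and apolipoprotein and lipoprotein assembly genes 0 of 20 above and 4 below (median -0.34).

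Proteasome subunits had 0 of 31 above and 3 below (median -0.13), and autophagy genes 1 of 28 above and 5 below (median -0.20). Insulin and FOXO responsive genes had 3 of 20 in each direction (median -0.08), growth hormone and IGF axis genes 1 of 17 above and 2 below (median -0.11), and glucocorticoid-induced genes with metallothioneins 0 of 15 above and 1 below (median -0.22). Cytochromes P450 of families 1 to 3 had 2 of 36 in each direction (median -0.09), clock output genes 1 of 23 above and 4 below (median -0.23), and antigen presentation genes 1 of 30 above and 0 below (median 0.12). Female-biased liver genes had 0 of 16 in either direction with a median of 1.04, and Control medians of -0.51, -0.65 and 1.40 for replicates 1, 2 and 3. No member was called by limma in the 6 libraries.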
